A study of Mus musculus with 7 samples.

Results

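The genes described here are 39 neutrophil genes, picked by symbol for what is known of them, with earlier results of these data known. All 39 were found among the 56691 genes of the deposited table. They fall into 8 lists. Of granule genes there are 5 of azurophil (primary) granules and promyelocytes, 5 of secondary granules and 4 of tertiary granules or late stages. The others are 7 genes that mark maturity or fill the cytosol, 8 receptors, 4 adhesion genes, 4 subunits of the NADPH oxidase and 2 secreted proteins. Neutrophils are short-lived white blood cells that mature in the bone marrow and fill their granules in order. Proteases and myeloperoxidase are transcribed in promyelocytes, lactoferrin and its companions in myelocytes, and gelatinase later still. The granule transcripts a cell holds therefore depend on its stage. Mature cells leave the marrow in response to granulocyte colony-stimulating factor, follow chemokines and formyl peptides through receptors, adhere through selectin ligands and integrins, and kill microbes with granule contents and the superoxide made by the NADPH oxidase. In the liver they collect in sinusoids during endotoxaemia, where Kupffer cells, monocytes and endothelial cells share several of these genes, in particular the integrins, the receptors and the oxidase.

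Livers of male C57BL/6J mice were compared between 4 control mice and 3 mice given LPS, the endotoxin of Gram-negative bacteria. The mice were bought at 8 weeks of age and housed for 2 weeks, and the LPS group received 10 mg/kg into the peritoneum, with livers taken 24 h later. The study kept 6 mice in each group and also had an arm given sulforaphane, a plant isothiocyanate, which was not analysed here, and what the controls received is not given in the sources used here. Bulk poly(A) RNA was sequenced from whole liver, 1 library a mouse, so a lower number of cells of a type and less RNA in each of them cannot be told apart, and the same holds for higher values.

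Total counts were 14991022, 15096573, 15721944 and 18584140 in control replicates 1 to 4 and 20500391, 17095607 and 17821331 in LPS replicates 1 to 3. Levels are given in CPM, counts per 1000000 of a library size scaled with edgeR's TMM factors, and 3 counts summed over a group, the floor used below, equal 0.0448 CPM in the controls and 0.0563 CPM in the LPS group. Mitochondrial genes took 23.7, 14.6, 7.48 and 8.96% of the counts in the controls and 6.45, 3.83 and 3.94% in the LPS mice, so every control was above every LPS mouse in that share, and its part in the results was not tested. LPS replicates 2 and 3 were the closest pair within a group: the SD of their log2 ratio over 1729 abundant genes was 0.10, against 0.29 to 0.58 in the other pairs, while their variance was 3.80 times the counting noise, and they were kept as separate mice. The labelled tissue was checked with hepatocyte markers. Of 9 such genes 8 were matched, and they summed to 68834, 68059.7, 96819.9 and 82071 CPM in the controls and 63850.0, 76619.6 and 77139 CPM in the LPS mice, with albumin (Alb) the most abundant in the controls and Fgb by mean in the LPS mice. Of the 8, Fgb was higher and Ttr lower, at 4044, 4858, 6522 and 5371 against 19975, 28459 and 29164 CPM and 6672, 6641, 5653 and 5328 against 2721, 2553 and 2515 CPM.

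Of the 39 neutrophil genes, 28 were higher in the LPS mice and 0 lower, by the rule of an adjusted p under 0.05 with a log2 fold change beyond 1 in either direction (edgeR quasi-likelihood test with Benjamini-Hochberg adjustment over 13683 genes). Over all genes tested, the same rule called 7.81% higher and 7.31% lower, and DESeq2 called 29 of the 39 higher and 0 lower. In 30 of the 39 every LPS mouse lay above every control mouse, against 18.1% of all genes tested, and the other 9 overlapped. At an unadjusted p below 0.05, edgeR had 29 higher and 0 lower. With total counts in place of TMM factors, the median log2 fold change of all genes moved from -0.01 to -0.13 and 28 of the 39 were still called higher. The filter on low counts let 32 of the 39 through. A gene that passes only through its counts in the LPS group has to differ, so shares are taken over all 39 and not over those that passed. The 7 that did not pass were Mpo, Elane, Ctsg, Ms4a3, Camp, Ly6g and Padi4, of which 4 belong to the azurophil list, and the 4 that passed without being called were Prtn3, Hdc, Hcar2 and Itgb2l. Baseline levels were low: in 15 of the 39 no control library held more than 3 counts, and in 7 all control libraries were at 0. How reads that map to several places were counted is not given in the sources used here, which bears on genes with close relatives: Stfa2l1, Ly6g, Chil3, Fpr1 and Fpr2, Clec4d and Clec4e, Trem1 and Trem3, and Itgb2 and Itgb2l.

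**Figure D1:**
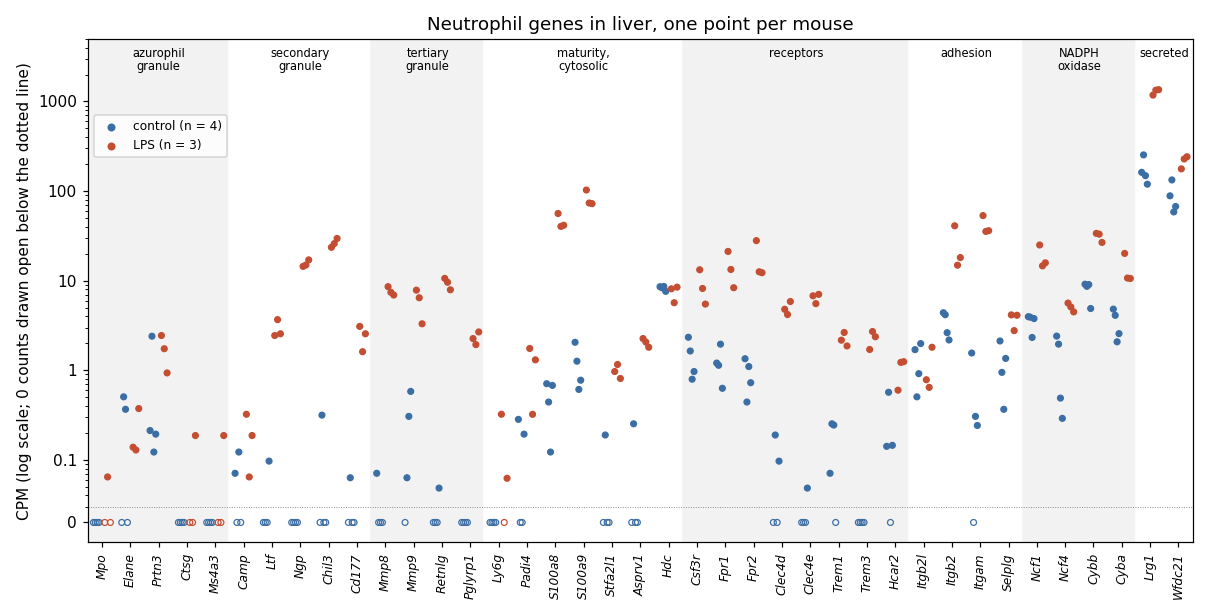
CPM of each of the 39 neutrophil genes (log axis), ordered by granule stage and role, with 1 point for each of 4 control (blue) and 3 LPS (red) mice and open points below the dotted line for 0 counts. Red and blue points overlap in the 5 azurophil genes and in Camp, Ly6g, Hdc and Itgb2l, and they are apart in the other 30 of the 39 genes.

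Of the azurophil list, 4 of 5 genes had few counts in both groups, and Prtn3 held most of the counts. Only Prtn3 was tested by edgeR. It was not called, and its unadjusted p was not below 0.05. DESeq2 called 0 of the 5 but gave no adjusted p for Mpo, Ctsg and Ms4a3. The lack of calls therefore does not show that the sparse genes were unchanged. Its summed level was 0.212, 2.90, 0.489 and 0.194 CPM in control replicates 1 to 4 and 2.58, 1.93 and 1.68 CPM in LPS replicates 1 to 3, so control replicate 2 lay above every LPS mouse. Mpo, which encodes myeloperoxidase, had 0 counts in every control and 0, 1 and 0 counts in LPS replicates 1 to 3. Ctsg, the gene of the serine protease cathepsin G, and Ms4a3, a membrane protein gene of granulocyte and monocyte progenitors, each had 0 counts in the controls and 0, 0 and 3 counts in the LPS mice. For these 3 genes both groups were at or under the floor and no fold is given. Elane, the gene of neutrophil elastase, had 0, 8, 6 and 0 counts in the controls and 3, 2 and 6 in the LPS mice, or 0.218 ± 0.258 CPM (SD, n = 4) and 0.214 ± 0.139 CPM (SD, n = 3), and the groups overlapped. Prtn3 (ENSMUSG00000057729), which encodes proteinase 3, held most of the list's counts, with 3, 38, 2 and 4 counts in the controls and 53, 27 and 15 in the LPS mice. In CPM these were 0.212, 2.40, 0.122 and 0.194 against 2.44, 1.74 and 0.934. Control replicate 2 was nearly as high as LPS replicate 1 and the other controls were low, and the difference did not pass (log2 fold change 1.23, SE 0.86, edgeR quasi-likelihood adjusted p = 0.329). Without control replicate 2, Prtn3 passed with a log2 fold change of 3.22 (edgeR adjusted p = 0.00616), while its adjusted p over all alternatives ran from 0.00616 to 0.590.

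Secondary granule genes had few counts in the controls and, apart from Camp, many more after LPS. Their summed level was 0.0708, 0.379, 0.122 and 0.0968 CPM in control replicates 1 to 4 and 43.8, 46.2 and 51.9 CPM in LPS replicates 1 to 3, and 4 of the 5 genes were higher. Chil3 (ENSMUSG00000040809), which encodes a chitinase-like lectin that macrophages also make, was the most abundant of them, with 0, 0.316, 0 and 0 CPM in the controls and 23.6, 25.9 and 29.6 CPM in the LPS mice. Every LPS mouse was far above every control, and the only control counts, 5 of them, were in replicate 2 (log2 fold change 8.32, SE 0.51, edgeR quasi-likelihood adjusted p = 1.78e-07; without control replicate 2 at least 444-fold, adjusted p = 9.89e-07). Ngp (ENSMUSG00000032484), the neutrophilic granule protein, had 0 counts in all 4 controls and 313, 232 and 274 counts, or 14.4, 14.9 and 17.1 CPM, in LPS replicates 1 to 3. It was at least 343-fold higher, taking 3 counts over the control group as the bound (edgeR quasi-likelihood adjusted p = 3.23e-07), and the 3 LPS mice were close together. Ltf, the gene of the iron-binding protein lactoferrin, had 0, 0, 0 and 2 counts in the controls and 53, 57 and 41 in the LPS mice, a ratio of summed counts per scaled library of 94.9, with an exact 95% interval of 25.8 to 791 (edgeR adjusted p = 7.93e-05). Cd177, a surface glycoprotein gene of neutrophils, had 0, 1, 0 and 0 and 67, 25 and 41 counts, a ratio of 167, with an exact 95% interval of 29.5 to 6655 (edgeR adjusted p = 7.37e-05). In both genes LPS mice and controls were apart, and the wide intervals, which cover counting error only, come from the 1 or 2 control counts. Those counts were in 1 mouse, without which the controls were at 0, Ltf was at least 43.8-fold higher without control replicate 4 and Cd177 at least 42.6-fold without control replicate 2. Camp, the gene of the antimicrobial peptide cathelicidin, stood apart from its list: it had 1, 0, 2 and 0 counts in the controls and 7, 1 and 3 in the LPS mice, it overlapped between groups and it did not pass the filter. Its ratio was 4.61, with an exact 95% interval of 1.22 to 25.7 that covers counting error only. Without the filter its edgeR adjusted p was 0.523.

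All 4 tertiary granule and late-stage genes were higher in LPS mice, with no overlap, and their summed level was 0.0708, 0.0631, 0.306 and 0.629 CPM in the controls and 29.3, 25.4 and 20.8 CPM in LPS replicates 1 to 3. Retnlg (ENSMUSG00000022651), which encodes a resistin-like protein secreted by neutrophils, had 0, 0, 0 and 1 counts in the controls and 230, 149 and 127 counts, or 10.6, 9.60 and 7.91 CPM, in the LPS mice. The ratio of summed counts was 636, with an exact 95% interval of 114 to 25183 (edgeR quasi-likelihood adjusted p = 1.91e-07). Mmp8, the neutrophil collagenase, had 1, 0, 0 and 0 and 186, 115 and 111 counts, a ratio of 518, with an exact 95% interval of 92.5 to 20514 (edgeR adjusted p = 5.81e-07). LPS replicate 1 was the highest of the 3 mice for both genes, and no control had more than 1 count. Without the mouse that held it the controls were at 0, and Mmp8 was at least 136-fold higher without control replicate 1 and Retnlg at least 147-fold without control replicate 4. Mmp9, the gelatinase that gives these granules their other name, had 0, 0.0631, 0.306 and 0.581 CPM in the controls and 7.83, 6.44 and 3.30 CPM in the LPS mice. It was the only gene of the list with more than 3 counts in a control, replicates 3 and 4 holding 5 and 12, and LPS replicate 3 was the lowest of its group (log2 fold change 4.48, SE 0.66, edgeR quasi-likelihood adjusted p = 0.000284; 5.43 without control replicate 4). Pglyrp1, a peptidoglycan recognition protein gene, had 0 counts in the controls and 49, 30 and 43 in the LPS mice and was at least 51.1-fold higher (edgeR adjusted p = 0.000186).

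Of the 7 maturity and cytosolic genes, 4 were higher, 1 was tested and not called, and 2 did not pass the filter. S100a9 (ENSMUSG00000056071) and S100a8 encode the subunits of calprotectin, the main cytosolic protein of neutrophils, which monocytes share. S100a9 had 2.05, 1.26, 0.611 and 0.774 CPM in control replicates 1 to 4 and 103, 73.6 and 72.4 CPM in LPS replicates 1 to 3 (log2 fold change 6.18, SE 0.30, edgeR quasi-likelihood adjusted p = 2.78e-08). For S100a8 the values were 0.708, 0.442, 0.122 and 0.677 CPM and 56.2, 40.3 and 41.5 CPM (log2 fold change 6.53, SE 0.31, edgeR quasi-likelihood adjusted p = 2.30e-08). Both genes had LPS replicate 1 highest and replicates 2 and 3 nearly level, and all controls were low. Asprv1, an aspartic protease gene, had 0, 4, 0 and 0 counts in the controls and 49, 32 and 29 in the LPS mice (log2 fold change 4.92, SE 0.90, edgeR quasi-likelihood adjusted p = 0.00150). Its control counts were all in replicate 2, without which it was at least 35.2-fold higher (edgeR adjusted p = 0.000823). Stfa2l1, a stefin-like inhibitor of cysteine proteases with close paralogs, had 0, 3, 0 and 0 and 21, 18 and 13 counts, a ratio of 21.8, with an exact 95% interval of 7.06 to 109 (edgeR adjusted p = 0.00684), and was at least 16.6-fold higher without control replicate 2, the only control with counts. Hdc, which encodes the enzyme that makes histamine, had 8.56, 8.33, 8.62 and 7.60 CPM in the controls and 8.11, 5.67 and 8.47 CPM in the LPS mice. The groups overlapped, LPS replicate 2 being the lowest of all 7 mice (log2 fold change -0.16, SE 0.21, edgeR quasi-likelihood adjusted p = 0.643).

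The other 2 genes of that list were sparse. Ly6g, which encodes the surface antigen that antibodies against mouse neutrophils recognise, had 0 counts in the controls and 7, 0 and 1 in LPS replicates 1 to 3. That is at least 3.35-fold higher over the group, but LPS replicate 2 was at 0 like the controls and 7 of the 8 counts were in LPS replicate 1. Ly6g sits in a family of similar genes. Padi4, the enzyme that citrullinates histones when neutrophils release chromatin, had 4, 0, 0 and 4 counts in the controls and 38, 5 and 21 in the LPS mice, or 0.283, 0, 0 and 0.194 CPM against 1.75, 0.322 and 1.31 CPM. The LPS mice were above the controls, narrowly for replicate 2. It was not tested in the filtered table; without the filter its log2 fold change was 3.19 (edgeR adjusted p = 0.00715), and DESeq2 gave 3.26 (adjusted p = 0.0129). It was called in 4 of the alternatives, with adjusted p from 0.00715 to 0.0416.

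Among the 8 receptors, 7 were higher and in all 8 the LPS mice lay above the controls. The summed level was 5.09, 4.23, 4.09 and 2.61 CPM in control replicates 1 to 4 and 78.4, 50.4 and 44.4 CPM in LPS replicates 1 to 3. Fpr2 (ENSMUSG00000052270) and Fpr1 encode receptors for the formyl peptides of bacteria and mitochondria. Fpr2 had 1.34, 0.442, 1.10 and 0.726 CPM in the controls and 28.0, 12.6 and 12.3 CPM in the LPS mice (log2 fold change 4.30, SE 0.39, edgeR quasi-likelihood adjusted p = 4.95e-06). Fpr1 had 1.20, 1.14, 1.96 and 0.629 CPM and 21.2, 13.3 and 8.34 CPM (log2 fold change 3.55, SE 0.39, edgeR quasi-likelihood adjusted p = 2.42e-05). In both, LPS replicate 1 was the highest mouse, for Fpr2 at 2.25 times the mean of replicates 2 and 3. Csf3r, the receptor for granulocyte colony-stimulating factor, had 2.34, 1.64, 0.794 and 0.968 CPM and 13.2, 8.18 and 5.48 CPM (log2 fold change 2.66, SE 0.41, edgeR quasi-likelihood adjusted p = 0.000375), and LPS replicate 1 was again the highest.

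The C-type lectin receptors Clec4e and Clec4d, which bind fungal and mycobacterial glycolipids, were close to 0 in the controls. Clec4e had 0, 0, 0 and 1 counts in the controls and 147, 86 and 113 counts in the LPS mice, a ratio of 435, with an exact 95% interval of 77.6 to 17235 (edgeR adjusted p = 8.56e-07). Clec4d had 0, 3, 0 and 2 and 104, 65 and 94 counts, a ratio of 66.1, with an exact 95% interval of 28.0 to 205 (edgeR adjusted p = 2.45e-05). Without control replicate 4, Clec4e was at least 100.3-fold higher, and without control replicate 2 the ratio for Clec4d was 126, with an interval of 34.6 to 1048. Trem3, an activating receptor gene of mouse myeloid cells, had 0 counts in the controls and 37, 42 and 38 in the LPS mice and was at least 49.0-fold higher (edgeR adjusted p = 0.000215). Unlike the formyl peptide receptors, these genes did not have LPS replicate 1 far above the other LPS mice, and Trem3 was lowest there. Its relative Trem1, which amplifies inflammatory signals, had 0.0708, 0.252, 0.244 and 0 CPM in the controls and 2.17, 2.64 and 1.87 CPM in the LPS mice (log2 fold change 3.95, SE 0.73, edgeR quasi-likelihood adjusted p = 0.00151). Hcar2, the receptor for niacin and hydroxybutyrate, had 0.142, 0.568, 0 and 0.145 CPM and 0.599, 1.22 and 1.25 CPM. LPS replicate 1 was only just above control replicate 2, and the difference did not pass (log2 fold change 2.22, SE 0.84, edgeR quasi-likelihood adjusted p = 0.0694). Without control replicate 2 it passed with a log2 fold change of 3.28 (edgeR adjusted p = 0.0217; 0.0217 to 0.205 over all alternatives).

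Of the 4 adhesion genes 3 were higher, and the median log2 fold change of the 4, all of which were tested, was 2.26, against -0.01 over all genes tested. Itgam (ENSMUSG00000030786) encodes the alpha chain of the integrin Mac-1, by which neutrophils and monocytes hold on to endothelium and complement-coated particles. It had 1.56, 0, 0.306 and 0.242 CPM in the controls and 53.2, 35.4 and 36.1 CPM in the LPS mice (log2 fold change 6.39, SE 0.53, edgeR quasi-likelihood adjusted p = 2.28e-06). Every LPS mouse was far above the highest control, replicate 1, without which the log2 fold change was 7.73. Itgb2, the beta chain shared by Mac-1 and other leukocyte integrins, had 4.39, 4.17, 2.63 and 2.18 CPM and 41.0, 14.9 and 18.1 CPM (log2 fold change 2.90, SE 0.36, edgeR quasi-likelihood adjusted p = 6.69e-05). LPS replicate 1 held 2.48 times the mean of the other LPS mice. Selplg, the ligand through which leukocytes roll on selectins, had 2.12, 0.947, 0.367 and 1.35 CPM and 4.15, 2.77 and 4.11 CPM (log2 fold change 1.62, SE 0.49, edgeR quasi-likelihood adjusted p = 0.0282). The groups were apart by a small margin, and the adjusted p rose to between 0.0504 and 0.0970 without control replicate 2, control replicate 4, LPS replicate 1 or LPS replicate 3, or with LPS replicates 2 and 3 summed into 1 sample (edgeR; 0.00320 to 0.0970 over all alternatives). Itgb2l, a paralog of Itgb2, went with neither: it had 1.70, 0.505, 0.917 and 1.98 CPM in the controls and 0.783, 0.644 and 1.81 CPM in the LPS mice, overlapping throughout (log2 fold change -0.25, SE 0.60, edgeR quasi-likelihood adjusted p = 0.802).

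The 4 subunits of the phagocyte NADPH oxidase were expressed in every control mouse and were all higher after LPS, without overlap. Their median log2 fold change was 2.02, against -0.01 over all genes tested, and their summed level was 20.3, 18.6, 13.9 and 11.5 CPM in the controls and 84.5, 63.5 and 57.6 CPM in the LPS mice. Cybb (ENSMUSG00000015340), the catalytic membrane subunit, had 9.13, 8.65, 9.04 and 4.89 CPM in control replicates 1 to 4 and 33.7, 33.0 and 26.7 CPM in LPS replicates 1 to 3 (log2 fold change 1.98, SE 0.21, edgeR quasi-likelihood adjusted p = 2.29e-05). Cyba, its membrane partner, had 4.81, 4.10, 2.08 and 2.56 CPM and 20.1, 10.7 and 10.6 CPM (log2 fold change 2.04, SE 0.33, edgeR quasi-likelihood adjusted p = 0.000534). The lowest LPS mouse was above the highest control by a wide margin for both. Ncf1, the cytosolic organiser subunit, had 3.96, 3.91, 2.32 and 3.77 CPM and 25.0, 14.6 and 15.8 CPM (log2 fold change 2.41, SE 0.25, edgeR quasi-likelihood adjusted p = 1.89e-05). Ncf4, a cytosolic subunit that binds a membrane lipid, had 2.41, 1.96, 0.489 and 0.290 CPM and 5.62, 5.09 and 4.48 CPM (log2 fold change 2.01, SE 0.57, edgeR quasi-likelihood adjusted p = 0.0197). Its controls split, replicates 1 and 2 being several times replicates 3 and 4, and its adjusted p was 0.0532 without LPS replicate 1 and 0.0550 without LPS replicate 2 (edgeR; 1.29e-05 to 0.0550 over all alternatives). LPS replicate 1 was highest for Cyba and Ncf1, at 1.89 and 1.64 times the mean of the other LPS mice.

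Lrg1 and Wfdc21 are secreted proteins that hepatocytes make as well as neutrophils, and their levels were of another order. Lrg1, a leucine-rich glycoprotein, had 162, 253, 149 and 119 CPM in the controls and 1179, 1338 and 1354 CPM in the LPS mice (log2 fold change 2.92, SE 0.23, edgeR quasi-likelihood adjusted p = 1.44e-06). Wfdc21, a small protein of the whey acidic protein family, had 88.5, 133, 58.5 and 67.4 CPM and 177, 228 and 241 CPM (log2 fold change 1.31, SE 0.24, edgeR quasi-likelihood adjusted p = 0.00164). The groups were apart for both genes. LPS replicate 1 was the lowest LPS mouse in each, while in each of the 4 oxidase genes it was the highest.

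**Figure D2:**
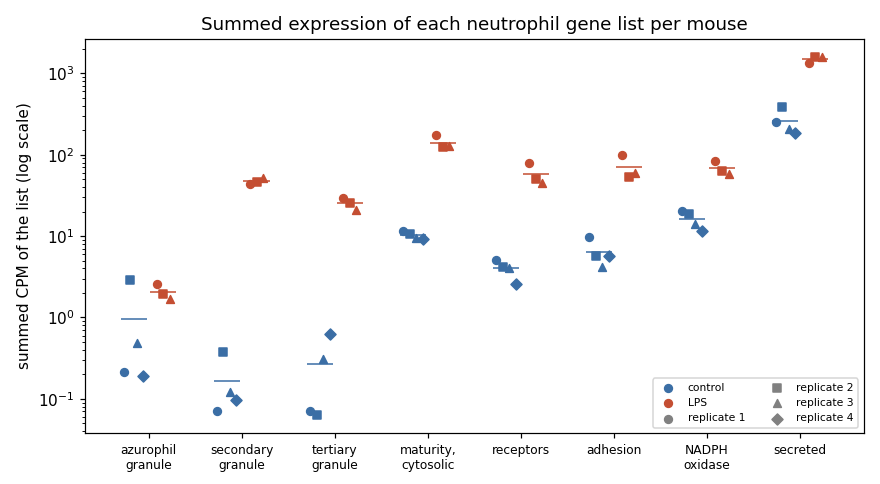
Summed CPM of the genes of each neutrophil list (log axis) in each of 4 control (blue) and 3 LPS (red) mice, with marker shape for the replicate and a bar for the group mean. The groups are apart in every list but the azurophil one, where control replicate 2, at 2.90 CPM, lies above the 3 LPS mice.

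Levels of different genes were compared per length of their exons, in CPM per kb of GENCODE M21 exons. The length takes all annotated exons of a gene together, whichever transcript is made. The annotation release behind the counts is not given in the sources used here, so the order of genes is approximate. In the LPS mice, S100a9 led the neutrophil genes outside the secreted list, at 159 CPM per kb, with S100a8 at 66.3. Chil3, Retnlg, Fpr2, Cyba, Ngp and Fpr1 followed at 16.1, 15.8, 13.6, 13.3, 12.7 and 10.8 CPM per kb. Genes of 1 granule class differed widely in level: within the secondary list, Ltf, Cd177 and Camp had 0.837, 0.851 and 0.252 CPM per kb beside the 12.7 of Ngp. Of the azurophil genes, Prtn3 was at 0.985, close to Ltf and Cd177, and the other 4 were below Camp, with Elane at 0.217, Ctsg at 0.0603, Ms4a3 at 0.0330 and Mpo at 0.00627 CPM per kb, with Ly6g at 0.136 and Padi4 at 0.233. In the control mice the order was another. Outside the secreted list, Cyba led with 3.26 CPM per kb, ahead of S100a9 at 2.25, Cybb at 1.36, Hdc at 1.30 and Itgb2 at 1.09, while the highest of the secondary and tertiary granule genes was Mmp9 at 0.0671.

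The LPS mice were not alike. Replicate 1 was the highest LPS mouse for 17 of the 28 called genes. By summed CPM, which the most abundant genes carry, it stood at 1.43 times the mean of replicates 2 and 3 for the azurophil list, 0.893 for the secondary list, 1.27 for the tertiary list, 1.38 for the maturity list, 1.65 for the receptors, 1.74 for the adhesion genes, 1.40 for the oxidase and 0.858 for the secreted proteins. Taken gene by gene, the median ratio was 0 in the azurophil list, where Mpo, Ctsg and Ms4a3 were at 0 in replicate 1, 0.901 in the secondary list, 1.20 in the tertiary list, 1.37 in the maturity list, 1.02 in the receptors, 1.35 in the adhesion genes, 1.41 in the oxidase and 0.815 in the secreted proteins, against 0.985 over all genes tested. The receptors were split, with 2.25 for Fpr2 and 0.672 for Trem3. The azurophil list was split as well, with 1.83 for Prtn3, which held most of its counts, and 0.550 for Elane.

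Markers of other liver cells were also unequal among the LPS mice. The 12 Kupffer cell and macrophage markers summed to 141, 206, 188 and 129 CPM in the controls and 727, 159 and 163 CPM in the LPS mice, a ratio of 4.52 for LPS replicate 1, and 4 of the 12 were higher (Marco, Cd68, Adgre1 and C1qb) and 1 lower. Marco, a scavenger receptor gene, was the most abundant of them in the LPS mice but not in the controls, where Clec4f was. It had 2.48, 5.55, 4.34 and 2.37 CPM in the controls and 409.7, 66.5 and 65.6 CPM in the LPS mice (log2 fold change 5.62, SE 0.63, edgeR quasi-likelihood adjusted p = 3.30e-05; 4.17 without LPS replicate 1), and DESeq2 gave it no adjusted p. Cd5l had 75.8, 4.90 and 3.30 CPM and Timd4 12.9, 0.0644 and 0.623 CPM in LPS replicates 1 to 3, against 24.1, 45.0, 40.1 and 25.9 and 4.53, 4.54, 5.26 and 1.98 CPM in the controls, so for both genes replicate 1 was above the controls and replicates 2 and 3 below them. Clec4f, a lectin particular to Kupffer cells, had 47.5, 69.9, 56.9 and 43.4 CPM in the controls and 24.1, 5.48 and 7.28 CPM in the LPS mice (log2 fold change -2.13, SE 0.41, edgeR quasi-likelihood adjusted p = 0.00216; -3.09 without LPS replicate 1). The 6 endothelial markers, with most counts in Clec4g in the controls and in Pecam1 in the LPS mice, had 2 higher (Pecam1 and Lyve1), 1 lower (Clec4g) and a ratio of 1.89 for LPS replicate 1, and their sums were 102, 115, 70.5 and 91.3 CPM in the controls and 145, 77.6 and 75.8 CPM in the LPS mice. Per mouse, controls against LPS mice, Cd68 had 2.62, 1.58, 3.36 and 2.90 against 21.0, 8.63 and 7.16 CPM, Adgre1 2.34, 4.92, 4.77 and 4.26 against 18.7, 8.63 and 10.1 CPM and C1qb 14.9, 14.8, 15.3 and 10.5 against 54.4, 21.0 and 20.2 CPM, and without LPS replicate 1 the log2 fold change of Cd68 was 1.59 against 2.23 with it. Pecam1 had 10.8, 10.6, 9.53 and 12.5 against 41.0, 19.2 and 18.7 CPM, Lyve1 5.02, 4.80, 4.89 and 7.74 against 27.2, 14.6 and 15.4 CPM and Clec4g 22.1, 31.4, 22.98 and 25.1 against 1.29, 0.322 and 1.87 CPM. All 6 genes were without overlap. None of the macrophage and endothelial markers was at 0 in all mice. C1qb and Pecam1, called higher with all mice, were not called without LPS replicate 1 (log2 fold change 0.58 and 0.81), and C1qb lost its call in 2 alternatives. The part of macrophages and endothelium in the receptor, adhesion and oxidase values was not tested. Without LPS replicate 1, 26 of the 39 neutrophil genes were higher, all 26 among the 28 called with it, and the calls lost were those of Ncf4 and Selplg, whose log2 fold changes without that mouse were 1.93 and 1.53 against 2.01 and 1.62 with it (edgeR adjusted p = 0.0532 and 0.0788).

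Monocytes share calprotectin, the integrins and the oxidase with neutrophils. Their 6 markers summed to 7.64, 7.13, 3.48 and 6.82 CPM in the controls and 22.3, 29.2 and 23.5 CPM in the LPS mice, 3 were higher and 0 lower by edgeR (0 lower at an unadjusted p below 0.05 and 0 by DESeq2), and none was at 0 in all mice. F13a1, Ms4a4c and Ly6c2 had log2 fold changes of 4.80, 3.51 and 3.28 (edgeR adjusted p = 4.15e-05, 2.42e-05 and 0.000179). Per mouse, controls against LPS mice, F13a1 had 0, 0.126, 0.367 and 0.242 against 5.44, 4.96 and 6.10 CPM, Ms4a4c 1.06, 0.379, 0.489 and 1.02 against 7.14, 10.9 and 7.47 CPM and Ly6c2 0.778, 0.252, 0.367 and 0.387 against 3.36, 5.09 and 4.61 CPM, all without overlap. Ms4a4c was the most abundant by mean in the LPS mice, and Ccr2 in the controls. Ccr2, the chemokine receptor of inflammatory monocytes, had 2.62, 3.98, 1.16 and 2.85 CPM in the controls and 2.67, 5.28 and 2.61 CPM in the LPS mice, and Cx3cr1 2.05, 1.64, 0.611 and 1.40 and 1.75, 0.773 and 0.685 CPM, both with overlap. The part of monocytes in the shared genes was not tested.

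Markers of other blood cells were low in both groups or lower in the LPS mice. Of 4 eosinophil markers, which share granule biology with neutrophils, Prg2 and Epx had 0 counts in all 7 mice, none was tested, and the sums were 0.142, 0.252, 0.0611 and 0 CPM in the controls and 0.461, 0.0644 and 0.0623 CPM in the LPS mice, from Ccr3 in the controls and Siglecf in the LPS mice. Of 6 mast cell and basophil markers only Kit was tested by edgeR. It was not called, its unadjusted p was not below 0.05, and DESeq2 called 0 of the 6. Ms4a2 was at 0 in every mouse, Cpa3 and Mcpt4 were at 0 in the LPS mice, and Kit held nearly all of the sums of 3.11, 4.17, 2.08 and 3.10 and 3.0, 2.19 and 1.18 CPM. The 4 B cell markers summed to 4.95, 5.11, 3.36 and 2.85 CPM and 0.691, 0 and 1.06 CPM and Cd79b was among those lower (edgeR adjusted p = 0.00627). The 8 T cell and NK cell markers summed to 4.39, 4.48, 3.73 and 3.10 and 3.13, 2.25 and 2.55 CPM. Only Cd4, which had the most counts in the controls, was tested by edgeR, and it was lower (log2 fold change -3.0, SE 0.71, edgeR quasi-likelihood adjusted p = 0.00747). The 4 dendritic cell markers, mostly Clec9a, summed to 5.17, 3.03, 3.30 and 2.56 and 2.26, 1.80 and 1.74 CPM. Only Clec9a was tested by edgeR. It was not called, its unadjusted p was not below 0.05, and DESeq2 called 0 of the 4. Per mouse, Cd4 had 2.12, 2.46, 2.02 and 1.94 against 0.323, 0.451 and 0 CPM and Cd79b 0.708, 1.20, 0.794 and 1.21 against 0.0922, 0 and 0.125 CPM, controls against LPS mice. Klrb1c, with the most counts of that list in the LPS mice, had 1, 5, 0 and 9 counts in the controls and 28, 8 and 14 in the LPS mice, without overlap in CPM, and was not tested. Of 9 erythroid markers 8 were matched and 4 were lower: Alas2, Hba-a1, Hbb-bs and Hbb-bt, with most counts in Hbb-bs. Alas2 was called in every alternative. The calls of Hba-a1, Hbb-bs and Hbb-bt were lost in 7, 8 and 3 alternatives, and DESeq2 did not call Hba-a1 and Hbb-bs (adjusted p = 0.0955 and 0.117). All 3 globin genes were not called without LPS replicate 2 (edgeR adjusted p = 0.124, 0.169 and 0.0660) or LPS replicate 3 (0.147, 0.181 and 0.0686), nor were Hba-a1 and Hbb-bs without control replicate 1 (0.0832 and 0.105), 2 (0.0623 and 0.0819) or 3 (0.0518 and 0.0519). Without LPS replicate 1 all 3 were called, with log2 fold changes of -3.31, -2.25 and -2.79 against -1.76, -1.29 and -1.94 with it (edgeR adjusted p = 4.72e-05, 0.000315 and 0.00305). Hbb-bs overlapped between groups. Per mouse, Alas2 had 66.4, 62.0, 79.6 and 78.5 against 23.5, 30.7 and 26.9 CPM, Hba-a1 92.0, 41.9, 63.1 and 40.1 against 39.96, 5.22 and 6.66 CPM, Hbb-bs 130.1, 73.7, 78.9 and 53.8 against 67.2, 16.4 and 18.8 CPM and Hbb-bt 16.7, 4.42, 10.0 and 6.00 against 4.38, 1.42 and 1.25 CPM. The 8 erythroid markers summed to 309, 184, 233 and 180.1 CPM in the controls and 137, 54.6 and 54.4 CPM in the LPS mice, and LPS replicate 1 stood at 2.52 times the mean of the other LPS mice. The 5 platelet markers, mostly Itga2b and with Gp1bb at 0, summed to 4.81, 3.22, 4.64 and 2.47 and 5.07, 2.25 and 1.74 CPM. Of the 5, 3 were tested by edgeR, with 0 called by either tool and 0 at an unadjusted p below 0.05. Of 6 proliferation genes, which dividing precursors of neutrophils would carry, 0 were called by edgeR or DESeq2 (1 at an unadjusted p below 0.05), and their sums were 9.41, 8.39, 7.88 and 6.00 and 9.22, 11.3 and 11.4 CPM, with Mki67 the most abundant.

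A further 58 genes of neutrophil production, attraction and signalling were looked at beside these. Of them 44 were tested, 31 were higher and 1 was lower, against 7.81% and 7.31% of all genes. Of 6 attractants and growth factors 3 were higher and 3 were not tested. Cxcl1 had 2.69, 5.11, 2.57 and 1.16 CPM in the controls and 146, 195 and 190.0 CPM in the LPS mice (log2 fold change 5.96, SE 0.35, edgeR quasi-likelihood adjusted p = 1.17e-07). Its relative Cxcl2 had 0.0708, 0.0631, 0.0611 and 0.339 and 5.25, 5.15 and 6.10 CPM (log2 fold change 5.18, SE 0.53, edgeR quasi-likelihood adjusted p = 1.52e-05; ratio of summed counts 84.7, interval 28.7 to 413, without control replicate 4). Csf3, the granulocyte colony-stimulating factor, had 0 counts in the controls and 25, 21 and 24 in the LPS mice and was at least 29.3-fold higher (edgeR adjusted p = 0.000737). In each of the 3 genes the LPS mice were close together and apart from the controls. Cxcl5 had 0 counts in the controls and 17, 7 and 23 in the LPS mice, at least 19.7-fold higher over the group, but did not pass the filter. Cxcl3 had 0, 10 and 0 and Csf2 0, 1 and 0 counts in the LPS mice, and 0 in the controls.

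Among 13 other migration genes 6 were higher. Cxcr2, the receptor for these chemokines, had 0, 0.694, 0 and 0.387 CPM in the controls and 7.83, 1.93 and 5.66 CPM in the LPS mice (log2 fold change 4.18, SE 0.81, edgeR quasi-likelihood adjusted p = 0.00209; 5.04 without control replicate 2). The LPS mice differed, replicate 2 being far lower than replicates 1 and 3. Cxcr1 had 8, 0 and 0 counts in the LPS mice and 0 in the controls. Icam1, the endothelial partner of the integrins, had 3.47, 8.20, 5.74 and 5.08 CPM and 32.8, 23.8 and 22.7 CPM (log2 fold change 2.23, SE 0.25, edgeR quasi-likelihood adjusted p = 3.29e-05). Itgal, another integrin alpha chain, had a log2 fold change of 1.94 (edgeR adjusted p = 0.00334), which was 1.03 without LPS replicate 1. C5ar1 and Fermt3 were also higher, with log2 fold changes of 3.49 and 1.41 (edgeR adjusted p = 0.000558 and 0.0192), the last not called without LPS replicate 1 (0.98, adjusted p = 0.124). Per mouse, controls against LPS mice, Itgal had 4.53, 4.42, 4.71 and 3.92 against 32.3, 7.54 and 10.4 CPM, C5ar1 1.06, 0.316, 0.0611 and 1.06 against 9.08, 7.09 and 5.23 CPM and Fermt3 2.76, 3.09, 1.77 and 1.16 against 8.76, 4.32 and 4.30 CPM, all without overlap. Selp, Icam2, Cxcr4, Ltb4r1 and Jaml were tested and not called, Ltb4r1 passing without LPS replicate 1 (edgeR adjusted p = 0.0463) or control replicate 3 (0.0491), and Jaml with no filter on low counts (log2 fold change 1.82, edgeR adjusted p = 0.0444).

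Of 10 other granule genes, protease activators and protease inhibitors, 6 were higher and 1 was lower. Lcn2, a secondary granule protein that hepatocytes also secrete in inflammation, had 14.8, 10.3, 7.94 and 6.24 CPM in the controls and 6592, 9070.1 and 9256 CPM in the LPS mice (log2 fold change 9.73, SE 0.35, edgeR quasi-likelihood adjusted p = 2.64e-09). At 3167 CPM per kb it was far above every granule gene of the neutrophil lists, and LPS replicate 1 was the lowest LPS mouse. Serpinb1a, an inhibitor of elastase, cathepsin G and proteinase 3, was lower, with means of 5.43 ± 1.73 CPM (SD, n = 4) in the controls and 0.618 ± 0.170 CPM (SD, n = 3) after LPS. Its values were 3.11, 5.68, 5.62 and 7.31 CPM in the controls and 0.645, 0.773 and 0.436 CPM in the LPS mice, without overlap (log2 fold change -3.12, SE 0.41, edgeR quasi-likelihood adjusted p = 0.000128). Slpi, another protease inhibitor gene, was higher, with 5.45, 0.947, 0.978 and 1.40 and 33.4, 27.4 and 27.1 CPM (log2 fold change 3.78, SE 0.46, edgeR quasi-likelihood adjusted p = 6.57e-05). Without control replicate 1 its log2 fold change was 4.69. Ctsc, the enzyme that activates the azurophil proteases, had a log2 fold change of 1.11 (edgeR adjusted p = 0.00731), and was under the fold threshold without control replicate 1 (0.90) and with total counts (0.98). Srgn, the granule proteoglycan, Lyz2, a lysozyme, and Adam8 had log2 fold changes of 2.34, 1.27 and 3.93 (edgeR adjusted p = 9.43e-07, 0.000757 and 0.000202). Per mouse, controls against LPS mice, Ctsc had 29.5, 47.5, 84.1 and 53.6 against 125, 112 and 109.6 CPM, Lyz2 30.4, 36.0, 40.4 and 19.1 against 84.4, 69.3 and 74.1 CPM and Srgn 6.01, 7.07, 6.35 and 4.65 against 31.5, 31.1 and 28.4 CPM, all without overlap. Olfm4, Mmp25 and Prss57 were not tested, and DESeq2 called 8 of the list higher. Olfm4 had 2, 0, 1 and 2 counts in the controls and 33, 9 and 15 in the LPS mice, a ratio of 14.3, with an exact 95% interval of 5.80 to 45.8. Mmp25 had 0 counts in the controls and 12, 6 and 11 in the LPS mice, at least 12.2-fold higher over the group. The groups were apart for both genes. Prss57, an azurophil protease gene, had 3, 0 and 0 counts in the LPS mice and 0 in the controls.

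The transcription factors that steer granulocyte development gave a mixed picture. Spi1, which encodes PU.1, and Cebpd were higher, with log2 fold changes of 2.24 and 2.34 (edgeR adjusted p = 0.000740 and 0.000364). Per mouse, controls against LPS mice, Spi1 had 2.83, 2.08, 2.63 and 0.823 against 13.2, 8.31 and 7.66 CPM and Cebpd 1.91, 3.09, 0.917 and 1.31 against 9.13, 9.86 and 8.40 CPM, both without overlap. Cebpe, which drives secondary granule genes in precursors, had 2.41, 4.80, 3.91 and 4.55 CPM in the controls and 1.98, 2.83 and 1.62 CPM in the LPS mice and was not called (log2 fold change -0.87, SE 0.36, edgeR quasi-likelihood adjusted p = 0.0957), though it was called lower without control replicate 1 (log2 fold change -1.05, edgeR adjusted p = 0.0432). Cebpb and Cebpa had log2 fold changes of 0.92 and -0.53 and were under the fold threshold, which Cebpb passed without control replicate 2 (1.11). Hepatocytes express both. Gfi1 and Myb, genes of early precursors, did not pass the filter. Gfi1 had 0 counts in the controls and 2, 9 and 2 in the LPS mice. That is at least 5.45-fold higher over the group, but 9 of the 13 counts were in LPS replicate 2. Myb had 4, 0, 0 and 5 counts in the controls and 3, 0 and 0 in the LPS mice.

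Among other oxidase partners, Rac2, the GTPase of blood cells, was higher, with a log2 fold change of 2.49 (edgeR adjusted p = 0.000227). It had 3.82, 2.84, 4.34 and 3.34 against 35.7, 12.0 and 12.6 CPM in control replicates 1 to 4 against LPS replicates 1 to 3, and without LPS replicate 1 its log2 fold change was 1.78. Cybc1, a chaperone of the membrane subunits, and Rac1 were not called, and the proton channel gene Hvcn1 was not tested. Of 17 adaptor, kinase and other signalling genes 12 were higher, among them Il1rn, Fcer1g, Fcgr3 and Fcgr4, with log2 fold changes of 6.53, 2.44, 2.42 and 2.52 (edgeR adjusted p = 5.10e-08, 0.000398, 3.82e-05 and 0.000848). Without LPS replicate 1 those of Fcer1g and Fcgr4 were 1.85 and 1.77. The calls of Ptafr, Tyrobp, Mxd1 and Syk were lost in 8, 6, 4 and 1 alternatives. Ptafr was lost without control replicate 2, 3 or 4 (edgeR adjusted p = 0.0996, 0.0807 and 0.102) and without LPS replicate 2 or 3 (0.0665 and 0.322). Tyrobp was lost without control replicate 1, 3 or 4 (0.0573, 0.0622 and 0.0848) and without LPS replicate 1 (0.183), as was Syk (0.0555). Syk had a log2 fold change of 1.96 with all mice and 1.24 without LPS replicate 1. For Ptafr it was 1.75 with all mice and 1.08 to 1.96 where the call was lost, lowest without LPS replicate 3. For Tyrobp it was 1.12 with all mice and 0.76 without LPS replicate 1. Mxd1 was under the fold threshold without control replicate 1 or 2 or LPS replicate 1 (log2 fold change 0.93, 0.98 and 0.99). Il1rn, the interleukin receptor antagonist, went the other way among the LPS mice, with 1.34, 0.442, 1.28 and 1.31 against 57.9, 124 and 126 CPM in controls against LPS mice. Likewise per mouse, Fcer1g had 6.79, 5.05, 2.81 and 3.0 against 39.7, 14.5 and 17.0 CPM, Fcgr3 3.96, 4.99, 2.51 and 2.18 against 22.1, 15.7 and 16.7 CPM, Fcgr4 2.41, 3.28, 2.63 and 1.16 against 24.2, 7.92 and 8.15 CPM and Syk 4.53, 4.80, 1.59 and 2.03 against 22.0, 8.70 and 6.47 CPM, all without overlap. Monocytes, macrophages and other leukocytes express most of these 17 genes.

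The promoters of the neutrophil genes were searched for the letters bound by PU.1 and by C/EBP factors, since both families act on granule genes. Sequences came from RefSeq on GRCm38.p6, as windows of 250 bases before and 50 bases from the start of a gene, while the counts were made on GRCm39 per the submitters' processing notes, so only sequence is read from them. Of the 39 genes 32 were matched, with 33 windows, since Ly6g has 2. GAGGAAG, on either strand, was found in 13 of the 33 windows, or 39.4%, against 13.6% of all 32851 windows. TTGCNNAA, likewise on either strand, was found in 8 of the 33, or 24.2%, against 10.8% of all windows. GAGGAAG was found for 4 of the 5 azurophil genes (Mpo, Elane, Prtn3 and Ctsg), for none of the 5 secondary granule genes, and for Mmp8, Pglyrp1, S100a8, Itgam, Itgb2l, Csf3r, Clec4d and Ly6g. TTGCNNAA was found for Ms4a3, Ltf, Ngp, Mmp8, Retnlg, S100a9, Clec4e and Ly6g. A match is a run of letters and not a site of binding. The 250 bases before the start are shown for the gene of each of the 3 granule lists with the highest mean CPM over all 7 mice, with capitals for the matches. No window was found for Selplg, Mmp9, Ncf4, Trem3, Wfdc21, Itgb2 and Hcar2. Prtn3 lies at chr10:79879417-79879666 on the plus strand and holds GAGGAAG, Chil3 at chr3:106167565-106167814 on the minus strand with neither run, and Retnlg at chr16:48872358-48872607 on the plus strand with TTGCNNAA, read on the opposite strand; all are written 5′ to 3′ along the gene.
Prtn3: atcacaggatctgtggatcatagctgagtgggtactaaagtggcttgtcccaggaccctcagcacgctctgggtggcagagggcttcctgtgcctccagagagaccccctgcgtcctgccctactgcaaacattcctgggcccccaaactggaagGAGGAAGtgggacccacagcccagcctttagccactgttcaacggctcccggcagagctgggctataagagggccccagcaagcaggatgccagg
Chil3: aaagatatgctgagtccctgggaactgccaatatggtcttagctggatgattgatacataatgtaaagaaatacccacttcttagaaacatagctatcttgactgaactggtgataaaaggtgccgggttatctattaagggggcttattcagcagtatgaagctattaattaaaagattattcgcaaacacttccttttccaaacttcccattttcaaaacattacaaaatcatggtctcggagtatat
Retnlg: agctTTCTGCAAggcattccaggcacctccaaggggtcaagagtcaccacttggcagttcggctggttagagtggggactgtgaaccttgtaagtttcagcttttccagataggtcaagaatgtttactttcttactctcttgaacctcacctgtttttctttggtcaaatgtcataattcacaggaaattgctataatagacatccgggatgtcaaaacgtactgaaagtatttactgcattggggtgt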

How the data were processed

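The deposited values are gene counts of mouse liver RNA, unscaled as the authors gave them. The labels list cutadapt 1.9.1, HISAT2 2.2.1, HTSeq 0.6.1, DESeq2 1.34.0 and GRCm39 without the role of each. All 7 libraries of the table were used, 4 control and 3 LPS. In R 4.3.3, edgeR 4.0.16 filtered genes with filterByExpr, scaled libraries with TMM factors and compared LPS with control by the quasi-likelihood F test on all 13683 genes kept, with Benjamini-Hochberg adjustment. The rule for a call was an adjusted p under 0.05 with a log2 fold change beyond 1 in either direction. SEs are the log2 fold change over the square root of F. Tables, intervals and plots were made with Python 3.11.15, pandas 2.3.3, scipy 1.17.1 and matplotlib 3.10.9.

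Where every control library was at 0, a fold was taken against 3 counts over the group and written as a lower bound. Where the control libraries held at most 3 counts each, the ratio of summed counts per scaled library is given with an exact 95% interval. All such intervals cover counting error only and leave out the spread between mice. Precision follows from depth, given per sample in the report, and from the spread between mice. In pairs of mice of the same group the variance was 3.80 to 10.6 times the counting noise.

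The neutrophil genes and all other lists were chosen with earlier results of these data known. Every gene of the neutrophil lists is accounted for. By rule, values per mouse are printed for the 2 genes of each list with the highest mean CPM, the called gene with the largest change, genes of opposite sign to their list, genes with at most 3 counts in every sample of a group, and Ly6g. In the other lists they are printed for up to 5 called genes of each direction with the highest mean CPM and for genes that a small count leaves to be named. Some genes that this part of the rule names are left out of the text. Further genes, such as Itgb2, Selplg, Ncf4, Ccr2, Cx3cr1, Cebpe and Klrb1c, were chosen after their values were seen.

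The analysis was repeated with DESeq2 1.42.0, with RLE factors or unscaled library totals, with no low-count filter or a filter of 10 counts in each library, with no fold threshold, with replicate number as a block, with each mouse left out in turn, and with LPS replicates 2 and 3 summed. The analysis was checked on simulated data, where edgeR recovered 100% of 200 altered genes with 0% false among its calls. The altered genes were not sparse, their changes were well beyond the fold threshold, and the dispersion was fixed. These rates therefore do not carry over to sparse genes or to changes near the threshold.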

Additional observations from a re-analysis of the deposited data

Results flagged for a closer look

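In the control group of 4 mice, each gene of the neutrophil lists with more than 3 counts over the group was tested for a mouse far from the other 3 by Dixon's ratio of gap to range at its 95% critical value. Of 25 genes tested 5 had such a mouse, and chance gives about 1 in 20 for continuous values. That rate does not hold for sparse counts: for Chil3 and Asprv1 all control counts lie in 1 library, which gives the largest ratio by construction. LPS groups of 3 were not tested.

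Control replicate 2 was far above the others for 3 genes. Prtn3 was at 2.40 CPM (38 counts) against 0.122 to 0.212 CPM, Chil3 at 0.316 CPM (5 counts) against 0 in the other 3, and Asprv1 at 0.252 CPM (4 counts) against 0 in the other 3. For 2 oxidase genes 1 control was far below the rest: Ncf1 at 2.32 CPM in control replicate 3 against 3.77 to 3.96 CPM, and Cybb at 4.89 CPM in control replicate 4 against 8.65 to 9.13 CPM. The cause was not tested.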

How the results depend on the processing

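Of the 39 neutrophil genes, 28 were higher and 0 lower. DESeq2 had 29 higher, RLE factors 28, total counts 28, no filter 29, no fold threshold 28, a block for replicate number 28, and LPS replicates 2 and 3 summed 28, with 0 lower in each. Leaving out 1 mouse gave 26 to 29 higher and 0 lower. Under the filter of 10 counts in each library 9 were higher, since the other 19 of the 28 were not tested. There 693 of all genes were higher and 0 of the other pathway genes lower. With no fold threshold 1825 of all genes were higher and 1773 lower, and 2 pathway genes were lower. Leaving out 1 mouse gave 1 to 2 pathway genes lower.

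Genes that were not called changed sign in some alternatives. Hdc ran from -0.26 to 0.00635 on leaving out 1 mouse, Itgb2l from -0.83 to 0.0470, and Icam2 from -0.19 to 0.90. With the replicate number as a block Itgb2l was at 0.0569. The cause was not tested.

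Replicate numbers gave no clear sign of paired mice. The correlation of deviations of same-numbered control and LPS mice was 0.18, -0.06 and 0.07, against -0.14 to 0.10 for differently numbered mice. Deviations were taken from group means of few mice, so the check cannot exclude pairing. Depth limits Mpo, Elane, Ctsg, Ms4a3, Camp, Ly6g and Padi4, whose counts are too few for the filtered test.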
